A study of Mus musculus with 6 samples.

Results

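The untreated wild-type culture is the reference state of a study of mouse microglia kept in vitro, and it is described here by its own levels rather than as the denominator of a contrast. It comprises the 2 libraries whose treatment label is WT_untreated, of 6 in all. The other groups, of 2 libraries each, are untreated Cop1 KO microglia, whose label names loxP together with the knockout, and wild-type microglia given lipopolysaccharide (WT_LPS), for which the labels give neither dose nor duration. All 6 are polyadenylated RNA labelled as microglia in vitro with brain as the primary tissue. Age, strain, the driver of the knockout and the way the cells were isolated are not stated in the labels, which also do not say whether the 2 libraries of a group came from separate cultures or animals, so their spread may be technical.

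Microglia are the resident macrophages of the brain. They depend on signalling through the CSF1 receptor, survey the tissue with motile processes, and take up debris, synapses and lipoproteins that they digest in lysosomes. In the brain they are told apart from other macrophages by genes such as P2ry12, Tmem119, Sall1 and Cx3cr1, and they share a broad set of phagocyte genes with macrophages elsewhere.

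The libraries held 21158430 and 22553708 counts, which are reads aligned uniquely to a gene model. Levels are given as nRPKM, the deposited reads per kilobase adjusted by a size factor per sample, because only this scale can be compared between genes of different length. Of 36528 gene models listed, 11240 had a mean of at least 1 nRPKM, 3772 of at least 10, 252 of at least 100 and 14 of at least 1000, while 15130 had no count in either library. The median over all models was 0.0271 nRPKM. Protein-coding genes took 97.9% of the counts in both libraries. A total of 709 genes held 50% of the counts, and the 10 most abundant held 13.9% in each library.

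The 4 genes chosen to check the label spanned much of this range. Ctsd, which encodes the lysosomal aspartic protease cathepsin D (chr7:142375910-142387827, GRCm38.p6), was listed at 8067 and 7994 nRPKM and ranked first. Csf1r, the receptor for CSF1 and IL-34, stood at 343 and 344 nRPKM, rank 59. Cx3cr1, the fractalkine receptor (chr9:120048683-120068296), stood at 71.4 and 71.5 nRPKM, rank 387. These 3 genes of the microglial label were thus all among the highest 387. Gfap, an intermediate filament of astrocytes (chr11:102887336-102897200), was at 45.6 nRPKM in both libraries, rank 687, so RNA of that gene was also plentiful. Cx3cr1 was 1.57 times and Csf1r 7.53 times as high as Gfap on the nRPKM scale.

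**Figure D1:**
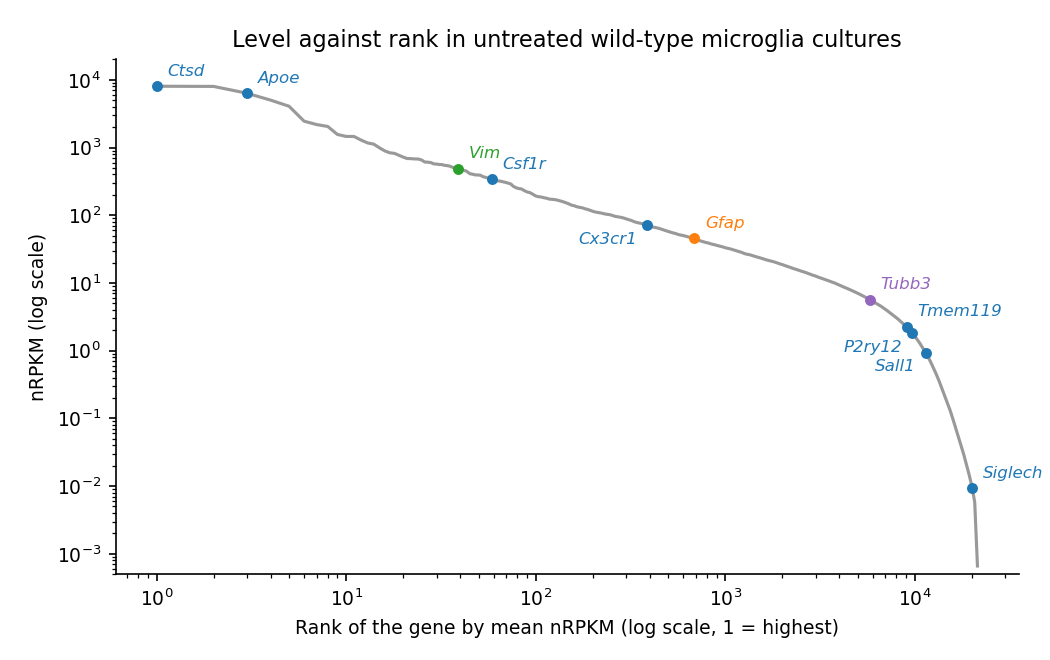
Mean nRPKM of each gene in the untreated wild-type libraries (y axis, log scale) against its rank (x axis, log scale), with named genes as points (blue, myeloid; orange, astrocytic; green, progenitor; purple, neuronal). Ctsd is at rank 1 and Csf1r at 59, Gfap at 687, and Tmem119 and P2ry12 lie at ranks 9052 and 9680 with levels near 2 nRPKM, below the neuronal Tubb3.

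Lysosomal, lipid and iron genes led the profile. Ctsd and Lyz2, the lysozyme of myeloid cells (7901 and 8065 nRPKM), could not be ordered, since each was higher in 1 library. Apoe, the main apolipoprotein of the brain, followed at 6403 and 6255 nRPKM. Fth1, the ferritin heavy chain, was at 4965 and 5046 nRPKM, and Spp1, which encodes the secreted phosphoprotein osteopontin, at 4058 and 4077 nRPKM. In every step from Lyz2 down to Ctss the higher gene exceeded the next in both libraries. Ctsb (2444 and 2453 nRPKM), Gpnmb (2176 and 2184), Psap (2049 and 2041) and Ctss (1555 and 1561) completed the first 9. Lgals3 and Tmsb4x, ranks 10 and 11, differed by less than the libraries did. Ranks 12 to 20 were Tyrobp, Actb, B2m, Cst3, the mitochondrial CYTB, Mmp12, C1qc, Lpl and Itm2b, in that order in both libraries.

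Ranking by count, which rewards long transcripts, kept 13 of these 20 and 67 of the first 100. Ctsd stayed first with 586937 and 619090 counts, 2.77% and 2.74% of each library. Ctsb moved to the second place, its gene model being 2.43 times as long as that of Ctsd by the ratio of count to nRPKM. Lrp1, an endocytic receptor with a very long transcript, was 18th by count and 231st by nRPKM (105 in both libraries), and Csf1r was 20th by count. Mpeg1, Adam8, Grn, Ctsl and Sirpa also entered the first 20 by count. The largest losses in the opposite sense were of short models. TrnE, a mitochondrial tRNA, was 164th by nRPKM on 333 and 379 counts and 8042nd by count, and Mir6236 was 53rd on 1811 and 1669 counts and 2658th by count.

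The lysosomal genes were high as a class. All 61 distinct members of the cathepsin, hydrolase and proton pump lists were at or above 1 nRPKM, against 30.8% of all models, and 25 were at or above 100 nRPKM. Their median was 74.2 nRPKM and they took 11.2% and 11.1% of all counts. Among the 12 genes of the cathepsin and legumain list, 7 exceeded 100 nRPKM: beside Ctsd, Ctsb and Ctss these were Lgmn (674 and 682), Ctsl (674 and 678), Ctsz (543 and 538) and Ctsa (346 and 342). Ctsk, the collagenase of osteoclasts, was the lowest at 2.39 and 2.07 nRPKM. This list took 6.13% and 6.10% of the counts, and the 79 ribosomal protein genes 0.394% and 0.390%. These 2 shares cannot be compared as abundances, because counts are of uniquely aligned reads. Of the 79 ribosomal protein genes, 58 share 10% to 50% of their 50-base transcript stretches with other genes and 5 share more. All 12 genes of the cathepsin and legumain list share under 10%.

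Enzymes that degrade glycolipids and lipoproteins followed. Psap, the precursor of the saposins that present sphingolipids to hydrolases, and Gpnmb, a lysosomal glycoprotein, were the only members of the 33-gene hydrolase and membrane protein list above 1000 nRPKM. Grn, whose product progranulin supports lysosomal enzymes, was at 692 and 682 nRPKM, and Lamp1, a lysosomal membrane protein, at 568 and 571. Lipa, the acid lipase that frees cholesterol from esters, was at 357 and 364 nRPKM. The lowest member of that list still reached 9.62 nRPKM. All 16 V-ATPase subunit genes, which encode the pump that acidifies the lysosome, were detected, from Atp6v0b (183 and 188 nRPKM) down to Atp6v0c (5.18 and 5.52).

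Many lysosomal genes are known targets of TFEB and TFE3, which bind an E-box with the core TCACGTGA (the CLEAR element). Tfe3 was at 27.7 and 27.5 nRPKM and Tfeb at 9.15 and 9.12. The core, which is its own reverse complement and contains the shorter E-box CACGTG, was sought in RefSeq promoter windows from 250 bases before to 50 after each gene's start (GRCm38.p6). It was found in 1.125% of 27025 genes, in 2.383% of the 8476 genes with a window at or above 1 nRPKM, in 5 of 36 cathepsin and hydrolase list genes with a window, in 3 of 11 V-ATPase genes and in 0 of 11 astrocyte list genes. The 8 sites are shown because they are the lysosomal genes of the culture that hold the element. Each is read on the gene's own strand with 10 bases on either side and the core in capitals.
Ctsd: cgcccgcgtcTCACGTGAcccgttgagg
Ctsa: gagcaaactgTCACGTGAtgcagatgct
Gla: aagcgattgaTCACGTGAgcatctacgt
Cln3: acgggtactgTCACGTGAcccccaacct
Mcoln1: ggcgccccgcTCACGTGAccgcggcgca
Atp6v1a: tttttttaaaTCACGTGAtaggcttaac
Atp6v0d1: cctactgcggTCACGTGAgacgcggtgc
Atp6v0e: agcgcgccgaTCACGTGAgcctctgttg

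These sites lie at chr7:142387909-142387936 (Ctsd, minus strand), chr2:164833750-164833777 (Ctsa, plus), chrX:134601216-134601243 (Gla, minus), chr7:126583341-126583368 (Cln3, minus), chr8:3500463-3500490 (Mcoln1, plus), chr16:44139374-44139401 (Atp6v1a, minus), chr8:105566051-105566078 (Atp6v0d1, minus) and chr17:26676388-26676415 (Atp6v0e, plus). The core begins at position -99 relative to the start of Ctsd, -13 for Ctsa, -228 for Gla, -122 for Cln3, -46 for Mcoln1, -132 for Atp6v1a, -4 for Atp6v0d1 and 2 for Atp6v0e. The genes that carry it ranged from 8067 and 7994 nRPKM (Ctsd) to 20.7 and 21.1 (Mcoln1, a lysosomal cation channel), so the letters did not go with a single level. A match describes the sequence and is no evidence of binding. The 250 bases upstream of Ctsd, the most abundant gene, are given in full (chr7:142387828-142388077, minus strand, core in capitals).
Ctsd: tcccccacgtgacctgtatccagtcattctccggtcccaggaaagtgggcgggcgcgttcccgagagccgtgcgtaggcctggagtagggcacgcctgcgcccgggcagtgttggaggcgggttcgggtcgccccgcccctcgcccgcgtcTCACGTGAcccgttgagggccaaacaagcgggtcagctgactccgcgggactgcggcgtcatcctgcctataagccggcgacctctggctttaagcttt

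The other motif searched, GAGGAAGT on either strand for the myeloid factor PU.1, was found in 3.689% of all genes with a window and in 1 of 24 microglia signature and pan-myeloid genes. It was found in 4 of the 36 cathepsin and hydrolase genes. Spi1, which encodes PU.1, was at 141 and 140 nRPKM.

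The microglia signature split into a high and a low part. Of 16 genes, 12 were at or above 1 nRPKM, with a median of 3.61 nRPKM. Csf1r was followed by Fcrls, a scavenger receptor-like protein (103 and 102 nRPKM), then Cx3cr1, then Olfml3, a secreted matrix protein (53.7 and 54.2), and Tgfbr1, a TGF-β receptor (21 and 21.2). Other members often used to tell microglia from macrophages elsewhere were low. Tmem119, a membrane protein, was at 2.22 and 2.26 nRPKM, and the purinergic receptors P2ry13 and P2ry12 at 1.72 and 2.23 and at 1.90 and 1.74. Sall1, the transcription factor that marks the lineage, was at 0.961 and 0.906 nRPKM. Slc2a5, Crybb1 and Siglech had between 0 and 4 counts in either library. Csf1r exceeded P2ry12 by 180 and 198 times on the nRPKM scale.

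Genes common to phagocytes were high throughout. All 16 pan-myeloid genes were detected, 13 of them above 100 nRPKM, with a median of 276 nRPKM. Tyrobp, the signalling adaptor DAP12 (1279 and 1293 nRPKM), was 2.31 and 2.41 times its partner receptor Trem2 (554 and 537). Cd68, Laptm5, Fcer1g, Itgb2, Fcgr3 and Cd14 lay between 188 and 520 nRPKM. Aif1, which encodes the widely used marker IBA1, was the lowest of the list at 21 and 20.4 nRPKM.

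The disease-associated microglia list, genes known to rise in microglia around amyloid and demyelinated lesions, was present in full at this baseline. All 21 members were at or above 1 nRPKM and 12 at or above 100, and 7 stood among the first 20 by nRPKM: Apoe, Spp1, Ctsb, Gpnmb, Lgals3, Tyrobp and Lpl. Clec7a, a β-glucan receptor, was at 171 and 172 nRPKM and Itgax, the integrin CD11c, at 51.7 and 51.3. Cst7, a cystatin often high in such cells, was the exception, with 54 and 51 counts and a level just above the threshold at 1.39 nRPKM.

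Transcription factors of the lineage were nearly all expressed. Of 21, 20 were at or above 1 nRPKM, and Sall1 was the one below. Spi1 and Cebpa (100 and 102 nRPKM) were highest, with Irf8 (49.6 and 48.9) and Cebpb (41.6 and 41.9) lower in both libraries. Mef2a and Mef2c, which bind at microglial enhancers, were at 30.6 and 31.3 and at 14.1 and 14.3 nRPKM.

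**Figure D2:**
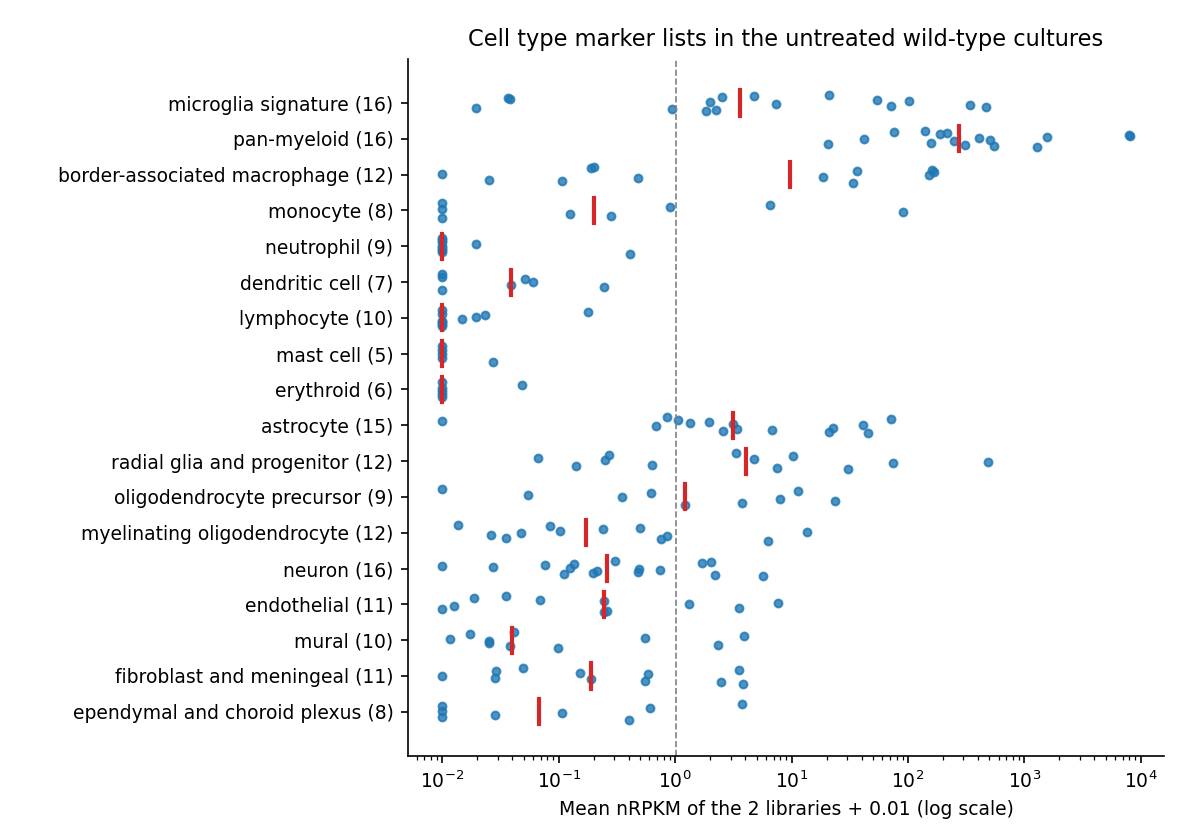
Each point is a gene of 1 of 18 cell type marker lists (rows, with the number of genes found), placed at its mean nRPKM over both untreated wild-type libraries plus 0.01 (x axis, log scale). Red bars are list medians and the dashed line is 1 nRPKM. The pan-myeloid median is 276, the microglia signature reaches down to 0.00938, the astrocyte, progenitor and oligodendrocyte precursor lists have medians of 3.13, 4.04 and 1.20, and the neutrophil, lymphocyte, mast cell and erythroid medians are 0.

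Receptors and uptake genes were ordered by complex. The C1q chains, which start the classical complement pathway, were C1qc at 824 and 813 nRPKM, C1qb at 691 and 678, and C1qa at 545 and 522, in that order in both libraries. The later component C3 was at 3.70 and 3.85 nRPKM. The C1 proteases C1ra and C1s1 and the component C4b were below 1, but 50.8%, 21.9% and 34.6% of their 50-base words occur in another gene, so their levels are uncertain. The receptors C3ar1 (181 and 184) and C5ar1 (99.4 and 103) were high. Complement as a list had 11 of 17 genes at or above 1 nRPKM. Of the αMβ2 integrin, complement receptor 3, Itgb2 was at 249 and 244 nRPKM and Itgam at 157 and 158. The Fc gamma receptor genes were all detected, from Fcgr3 (218 and 214) to Fcgr4 (27.1 and 28.8), with their signalling chain Fcer1g at 303 and 309 nRPKM.

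The phagocyte oxidase, the complex that makes superoxide, was well represented. Its membrane subunits Cyba (323 and 320 nRPKM) and Cybb (187 and 190) exceeded the cytosolic Ncf1 (83.9 and 83.2), Ncf4 (48.8 and 47.6) and Rac2 (38.9 and 39.4) in both libraries. Among Toll-like receptors and their partners 11 of 12 were detected. The endosomal Tlr13 (65.4 and 66.3), Tlr7 (30.1 and 30.1) and Tlr8 (25.9 and 25.2) and the surface receptor Tlr2 (16.7 and 16.6) lay above Tlr4, the lipopolysaccharide receptor (9.98 and 9.44). The endosomal Tlr9 (4.43 and 4.27) and Tlr3 (2.41 and 2.08) lay below it. Its co-receptor Cd14 was at 191 and 188 nRPKM and its partner Ly96 at 3.28 and 2.71. Tlr5, the flagellin receptor, had 3 and 4 counts.

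Antigen presentation genes were mainly those of class I. B2m (1107 and 1133 nRPKM), H2-D1 (563 and 560) and H2-K1 (173) were high, whereas the class II genes H2-Ab1, H2-Aa and H2-Eb1 lay between 0.885 and 2.5 nRPKM and their activator Ciita had 24 and 37 counts. Cd74, of the class II pathway, was higher than these class II genes, with a mean of 16.2 nRPKM. The co-stimulatory gene Cd86 was at 2.59 and 2.55 nRPKM, and Cd80 and Cd40 were below 1.

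Cytokine levels varied widely without stimulation. Of 20 genes 10 reached 1 nRPKM (50%, beside 30.8% of all models and 10150 of 21271 protein-coding genes), with a median of 1.36 nRPKM. The highest were Tgfb1 (86.0 and 87.3) and Igf1 (67.7 and 67.0), and Tnf was at 7.49 and 7.69. Il1b was at 2.44 and 3.05 nRPKM, Il6 had few reads (0.124 and 0.0232 nRPKM) and Csf2 and Ifnb1 had no count. Chemokines were more abundant: Ccl9 (108 and 111 nRPKM), Ccl6 (83.5 and 88.1), Ccl3 (64.6 and 67.0), Cxcl16, Ccl4 and Cxcl14 all exceeded 50 nRPKM, and 12 of 23 reached 1. Interferon-stimulated genes were detected in 17 of 18 cases, with a median of 9.62 nRPKM. Bst2 (130 and 124) and Ifitm3 (121 and 128) led them, and Isg15 was at 13.2 and 13.9.

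Ligands and receptors were mostly found together. Of 31 ligand and receptor pairs, both partners reached 1 nRPKM in 21, only the receptor in 6 and only the ligand in 4. Csf1, a ligand of Csf1r, was at 5.41 and 5.35 nRPKM, and the other, Il34, at 0.229 and 0.113, so the receptor exceeded Csf1 by 63.4 and 64.3 times. Cxcr4, a chemokine receptor, was at 64.4 and 66.0 nRPKM while Cxcl12 had 1 and 5 counts, and Csf2ra was at 92.3 and 91.7 with no count for Csf2. Spp1 and Apoe were ligands far above a listed receptor: Cd44 was 0.00860 and Trem2 0.0862 times as high as its ligand on the nRPKM scale. The ligands Ccl2 (22.5 and 22.9) and Pdgfb (21 and 20.9) were present with their receptors Ccr2 and Pdgfrb below 1 nRPKM.

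Lipid and iron genes were all or nearly all expressed. The 13 lipid genes were all at or above 1 nRPKM, led by Apoe, by Lpl, the lipoprotein lipase (760 and 776), and by Plin2, which coats lipid droplets (493 and 494). The cholesterol exporters Abca1 (22.8 and 22.9) and Abcg1 (13.7 and 13.6) were lower, and Nr1h3, which encodes their activator LXRα, stood at 2.84 and 2.43. Hmox1, which releases iron from haem, was at 574 and 572 nRPKM. The exporter Slc40a1 (66.5 and 66.7) exceeded the transferrin receptor Tfrc (7.22 and 7.40) in both libraries. Fth1 was 13.9 and 15.1 times Ftl1, but 48.2% of the 50-base words of Ftl1 occur in other genes, and the level of Ftl1 is uncertain.

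Macrophage markers outside the microglial set were mixed. Of 12 border-associated macrophage genes, which mark macrophages of the meninges and vessels, 6 reached 1 nRPKM. Folr2 (170 and 164 nRPKM), Stab1 (162 and 160) and Ms4a7 (150 and 152) were above Cx3cr1. Siglec1 (36.0 and 36.4), Mrc1 (33.4 and 34.5) and Pf4 (mean 18.8) were intermediate. Lyve1, Cd163 and Cd209f had at most 22 counts, the last 0, and F13a1, Clec10a and Cbr2 were also below 1 nRPKM. The list's summed level was 52.6% of that of the microglia signature, so its markers did not point 1 way. Among monocyte genes S100a4 (88.3 and 91.8) and Itga4 (6.56 and 6.39) were detected and Ly6c2 and Chil3 had 0 counts. No gene of the neutrophil, dendritic cell, lymphocyte, mast cell or erythroid lists reached 1 nRPKM. Cd3e, of the T cell receptor complex, had 0 counts in both libraries. The 4 haemoglobin genes also had 0, but between 53.2% and 89.3% of their 50-base words occur in another gene, so that unique counting cannot settle their level. For a gene with unique sequence, a total of 0 counts over both libraries allows up to 3, which is 0.0686 CPM (counts scaled to a library of 1e+06), counting error only.

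Glial and progenitor genes were the main non-myeloid component. In bulk RNA fewer cells of a type and less RNA per cell cannot be told apart, so these values are not cell fractions. The astrocyte list had 12 of 15 genes at or above 1 nRPKM and a median of 3.13. Atp1b2, a sodium pump subunit, was highest (72.5 and 71.8 nRPKM), followed by Gfap, by Clu, a secreted chaperone (41.3 and 40.7), by Aldoc (23.3 and 22.1) and by the glutamate transporter Slc1a3 (21.2 and 21). Aqp4, the water channel of astrocyte endfeet, was at 6.70 and 6.99 nRPKM. Gja1, the main astrocyte connexin, was at only 0.703 and 0.645, and Gjb6 had 0 counts, so defining genes of mature astrocytes were unevenly represented. The list's summed level was 20.8% and 20.7% of that of the microglia signature.

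Progenitor genes accompanied them. Vim was at 484 and 483 nRPKM, but it is expressed by macrophages as well. Fabp7, a fatty acid carrier of radial glia (75.5 and 73.1), Nes, an intermediate filament of neural progenitors (30.8 and 30.6), Hopx (9.37 and 11.1) and Sox2 (7.25 and 7.67) were detected, and 7 of 12 genes reached 1 nRPKM. Hes5 (mean 0.617), Egfr (0.260), Sox1 (0.241), Pax6 (0.131) and Prom1 (0.0560) did not. Oligodendrocyte precursor genes included Olig1 (24 and 23.3), Lhfpl3 (11.4 and 11.3) and Olig2 (7.85 and 8.08), with 5 of 9 at or above 1. Pdgfra, their growth factor receptor, was at 1.17 and 1.22, and Sox10 at 0.339 and 0.337. Gpr17, Nkx2-2 and Neu4 were also below 1. The progenitor list thus had 58.3% of its genes detected and the precursor list 55.6%. Over all models the share was 30.8%, and 10150 of 21271 protein-coding genes reached 1 nRPKM.

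Neuronal, endothelial, mural and fibroblast genes were detected at shares of 20% to 27.3%. For lists this short, that is near the share of all models (30.8%). It is below that of protein-coding genes (10150 of 21271 at or above 1 nRPKM). Of 16 neuronal genes 4 (25%) reached 1 nRPKM, namely Tubb3 (5.69 and 5.67), Map2 (2.21 and 2.20), Elavl3 (1.98 and 2.09) and Syp (1.84 and 1.58), and the summed list was 1.33% of the microglia signature in both libraries. Rbfox3, a marker of mature neurons, had 31 and 40 counts and Slc17a6 none. Among 11 endothelial genes 3 were detected, led by Vwf (7.74 and 7.69), whereas Pecam1 was at 0.187 and 0.283 and Cldn5, the tight junction gene of brain endothelium, had 0 counts. Mural genes were detected in 2 of 10 cases and fibroblast genes in 3 of 11. Myelin genes were low apart from Cnp (13.6 and 13.5) and Mbp (6.36 and 6.16), with Mog at 2 and 3 counts.

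Proliferation genes were expressed at moderate levels. Of 26 cell cycle genes 23 reached 1 nRPKM, with a median of 5.81 and a highest value of 19. Mcm6 (19.4 and 18.5) and Pcna (18.5 and 17.8), which act in replication, Top2a (12.2 and 12.4) and Mki67 (6.64 and 7.31) represented the list. The G1 genes Cdkn1a, an inhibitor (102 and 101), and Ccnd1 (61.9 and 62.1) were higher than all of these.

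Some low levels were of genes that share sequence with other genes. Reads were counted only where they aligned to a single place. Several genes with copies elsewhere were listed low, and the part of the counting rule in this was not tested. Gapdh was at 0.905 and 1.20 nRPKM, Actg1 at 1.11 and 1.08 and Tmsb10 at 2.14 and 2.11, while their relatives in the same pathways, Aldoa (296 and 287), Actb (1160 and 1174) and Tmsb4x (1446 and 1465), were high. Of the 50-base words in the annotated transcripts of Gapdh, 24.7% occur in another annotated gene, as do 36.3% of those of Actg1 and 27.0% of those of Tmsb10. Ribosomal protein genes had a median of 5.78 nRPKM: it was 24.6 for the 16 genes sharing under 10% of their words, 4.34 for the 58 sharing 10% to 50%, and 2.33 for the 5 sharing more. Sharing did not go with a low level in every case, since Eef1a1 (38.6% shared) was at 394 and 393 nRPKM and Rplp1 (60.0%) at 213 and 198. The levels of all these genes are uncertain. The cathepsin and microglia signature genes had medians of 0% shared words, and Lyz2 shared 15.4%. Strand was not kept, so overlapping models matter too: 34.4% of the exonic bases of Ctsd overlap Gm49369 and 15.1% of those of Csf1r overlap Hmgxb3.

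**Figure D3:**
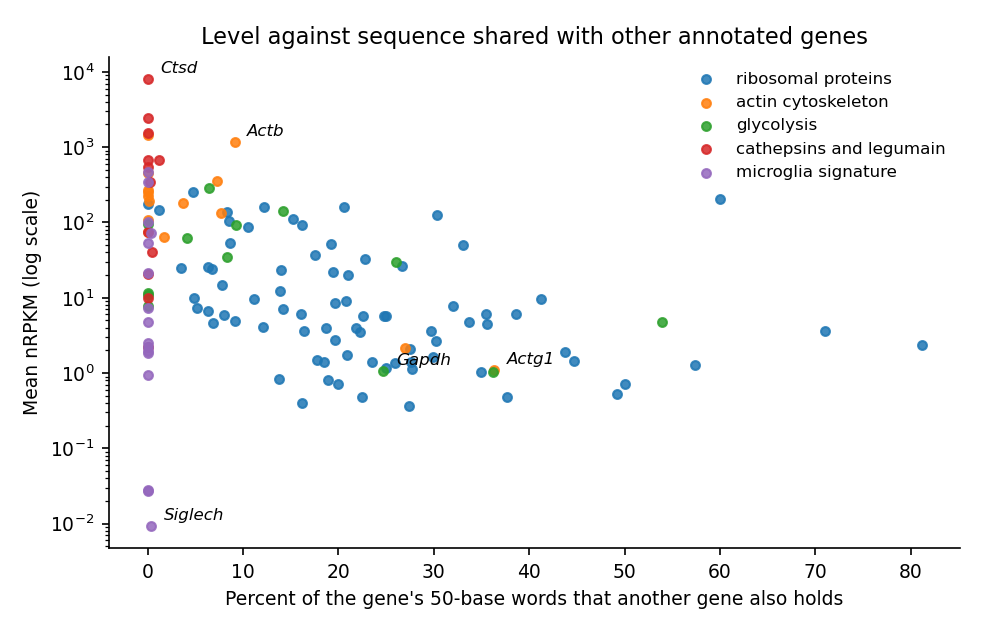
Mean nRPKM in the untreated wild-type libraries (y axis, log scale) against the percentage of a gene's 50-base words found in another annotated gene (x axis), for 5 gene lists in different colours. Cathepsin and microglia signature genes sit near 0% at levels from 0.00938 to 8030, Gapdh and Actg1 sit near 1 nRPKM at 24.7% and 36.3%, and most ribosomal protein genes share between 10% and 50%.

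The 2 libraries gave nearly the same profile. Among 3772 genes of at least 10 nRPKM, 94.6% agreed within 1.1-fold, and the ratio of library 2 to library 1 had a median of 1.0, with 95% of genes between 0.903 and 1.1. The chi-square per degree of freedom over 15209 genes was 1.60, where counting error alone gives about 1, and 11% of genes differed by more than their counting error, so the 2 libraries were not 1 library deposited under 2 names. The largest ratios were of short RNAs. Rn7sk, a nuclear noncoding RNA, was at 21.8 and 3.80 nRPKM (270 and 50 counts), and Mir6925 at 21.9 and 35 on 57 and 97 counts. The marker lists with many counts moved little: the share of the microglia signature in library 2 was 1.0 times that in library 1 (95% counting interval 0.992 to 1.008), that of the astrocyte list 0.999 times (0.983 to 1.02), and that of the cell cycle list 1.03 times (1.012 to 1.05). The last interval lies above 1, and the list rests on 21633 and 23771 counts.

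**Figure D4:**
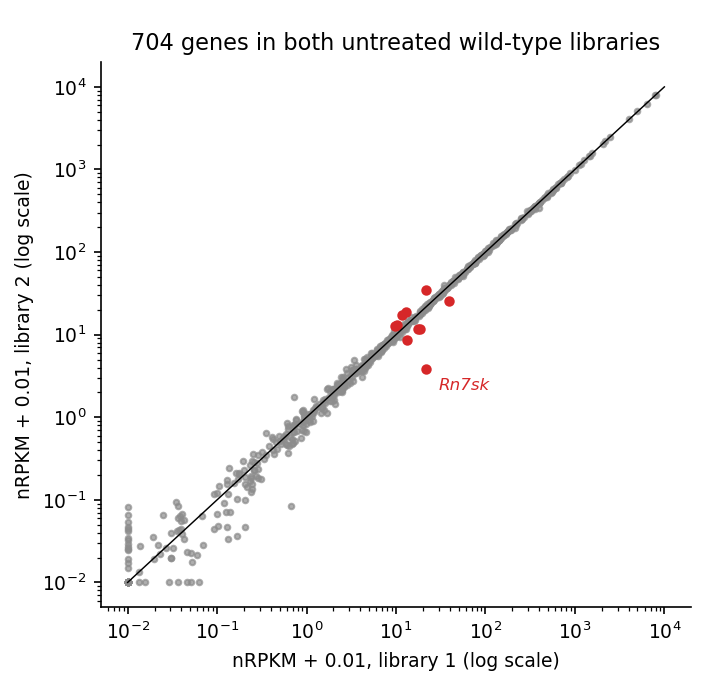
nRPKM plus 0.01 in library 2 (y axis) against library 1 (x axis) for 704 named genes of the untreated wild-type group, both axes logarithmic, with the line of equality. The 10 genes with the largest differences at 10 nRPKM or more are red, and Rn7sk, at 21.8 and 3.80, lies farthest from the line.

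The other groups place this baseline. Both comparisons use the same untreated wild-type libraries and were fitted together with edgeR's quasi-likelihood test over 15585 genes, with differences given as log2 of untreated wild type over the other group and called at a Benjamini-Hochberg adjusted p below 0.05. Cop1, the targeted gene, had 12.7 and 11.5 CPM (scaled here by TMM, edgeR's trimmed-mean factors) in untreated wild type and 8.06 and 9.23 in the libraries labelled Cop1 KO. The difference was 0.49 (SE 0.11, adjusted p = 0.000158), so the transcript was reduced but present under that label. Against Cop1 KO, 30.3% of all genes were called higher and 28.1% lower in untreated wild type. Against LPS, 43.4% were called higher and 30.2% lower. With so small a spread between libraries (2.7%, which edgeR names the biological coefficient of variation), most differences pass, and the sizes carry more than the calls. As the labels do not say whether a group's 2 libraries came from separate cultures or animals, the p-values may measure technical spread only.

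Against Cop1 KO, the glial genes of the untreated wild-type culture were far higher. Gfap was at 314 and 314 CPM in untreated wild type and 6.26 and 5.47 in Cop1 KO, a log2 difference of 5.74 (SE 0.06, adjusted p = 5.31e-55). The astrocyte list had 13 genes higher and 1 lower in untreated wild type of 14 tested (median 3.90), beside a median of 0.01 for all genes. All 12 progenitor genes (median 4.72), all 7 oligodendrocyte precursor genes tested (4.0) and 12 of 13 neuronal genes (4.05) were higher. As shares of counts, the astrocyte list took 0.133% in both untreated wild-type libraries, 0.00840% and 0.00818% in Cop1 KO and 0.0971% and 0.0986% with LPS. All 4 wild-type libraries thus lay above both Cop1 KO libraries in the share of this list. The untreated ones had the highest share of library totals, but their order against LPS depended on the scaling. The list's median log2 difference against LPS was -0.02 with TMM and 0.54 with totals alone.

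Myeloid genes moved the other way against Cop1 KO. All 16 pan-myeloid genes were lower in untreated wild type (median -0.51), as were all 12 genes of the cathepsin and legumain list (median -0.43). Of 33 hydrolase list genes 27 were lower and 2 higher (median -0.29). With libraries scaled by their totals alone, these 3 medians were -0.32, -0.24 and -0.10. Csf1r was at 2185 and 2190 CPM in untreated wild type and 4060 and 4024 in Cop1 KO (log2 difference -0.89, SE 0.03, adjusted p = 5.43e-35), and Cx3cr1 at 396 and 397 against 726 and 743 (-0.89). Ctsd differed less, at 23295 and 23081 against 28821 and 28428 CPM (-0.30). The microglia signature was divided, with 7 of 13 lower and 2 higher (Adgrg1, 2.95, and P2ry13, 0.49), and its median of -0.16 became 0.03 when libraries were scaled by their totals alone. Tmem119 (-0.14, adjusted p = 0.386) and P2ry12 (-0.14, adjusted p = 0.354) did not pass the test. The astrocyte share given above differed between the same groups, and its part in these differences was not tested.

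Cell cycle genes were higher in untreated wild type than in either other group. Against Cop1 KO 25 of 26 were higher and none lower (median 1.67), and against LPS the calls were 22 and 3 (median 2.02). Mki67 was at 99.2 and 109 CPM in untreated wild type, 20.9 and 24.6 in Cop1 KO and 25.2 and 24 with LPS. Top2a was at 94.6 and 95.9, 19.7 and 21.9, and 13.4 and 16.4 CPM. Pcna was an exception against LPS, where it was lower in untreated wild type (-0.40, SE 0.07, adjusted p = 3.95e-07). The astrocyte and progenitor lists were also higher than in Cop1 KO, and their part in this difference was not tested.

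Within the 200 genes of highest nRPKM at baseline, 191 named genes were tested. Against Cop1 KO 33 of them were called higher and 135 lower in untreated wild type (median -0.25). This balance is for TMM scaling and was not recounted under another. Over all genes, calls higher in untreated wild type went from 51.9% of calls to 75.6% with totals alone. The largest excesses were of Plau, the urokinase protease (1366 and 1363 CPM against 687 and 685), Cd36, a fatty acid and lipoprotein receptor (0.95), Tubb5 (0.87), Mmp12, macrophage elastase (0.81), Pea15a (0.59) and Folr2 (0.53). The largest deficits were of Ifitm3 (-1.89) and Bst2 (-1.47), which are interferon-induced, and of Lgals3bp (-1.47), Clec4d (-1.36), H2-K1 (-1.24) and Fcgr2b (-1.23). All 18 interferon-stimulated genes were lower in untreated wild type than in Cop1 KO, with a median of -1.86.

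Against LPS the same 191 genes divided evenly, with 86 higher and 84 lower in untreated wild type. The largest excesses were of Hpgd, which inactivates prostaglandins (340 and 333 CPM against 27.3 and 33.0), Glul, glutamine synthetase (2.69), Plau (2.46), Itgb5 (1.75), Erp29 (1.73) and Lipa (1.51). The largest deficits were of Prdx5, a peroxiredoxin (-2.97), Ifitm3 (-2.77), Bst2 (-2.33), Slc15a3 (-2.31), Lgals3bp (-2.07) and Cd14 (-1.87). Cytokine levels were low beside those with LPS: 19 of 20 were lower in untreated wild type (median -5.82), as were 20 of 22 chemokines (median -6.80) and all 18 interferon-stimulated genes (-5.88). Tnf was at 18.3 and 18.8 CPM without LPS and at 3872 and 3822 with it.

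Microglial identity genes were mostly higher without LPS. Of 13 microglia signature genes tested, untreated wild type had 10 higher and 3 lower (median 0.96, beside 0.18 for all genes). Cx3cr1 was at 396 and 397 CPM against 24.9 and 25.7 (log2 difference 3.97, SE 0.04, adjusted p = 7.36e-55), Csf1r at 2185 and 2190 against 931 and 940 (1.23) and Ctsd at 23295 and 23081 against 12450 and 12044 (0.92). The 3 lower genes were P2ry12 (-0.61), P2ry13 (-2.68) and Sall1 (-0.39). Among transcription factors, Cebpa (391 and 397 CPM against 5.20 and 4.41, log2 difference 6.35) was higher without LPS, and Spi1 was lower (-1.56). Gfap was close in both, at 314 and 314 against 343 and 338 CPM. Its difference of -0.12 (adjusted p = 0.00190) became 0.45 when libraries were scaled by their totals alone, so no direction can be given. The astrocyte list had 3 genes higher and 5 lower of 14, and its median of -0.02 became 0.54 in the same way.

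**Figure D5:**
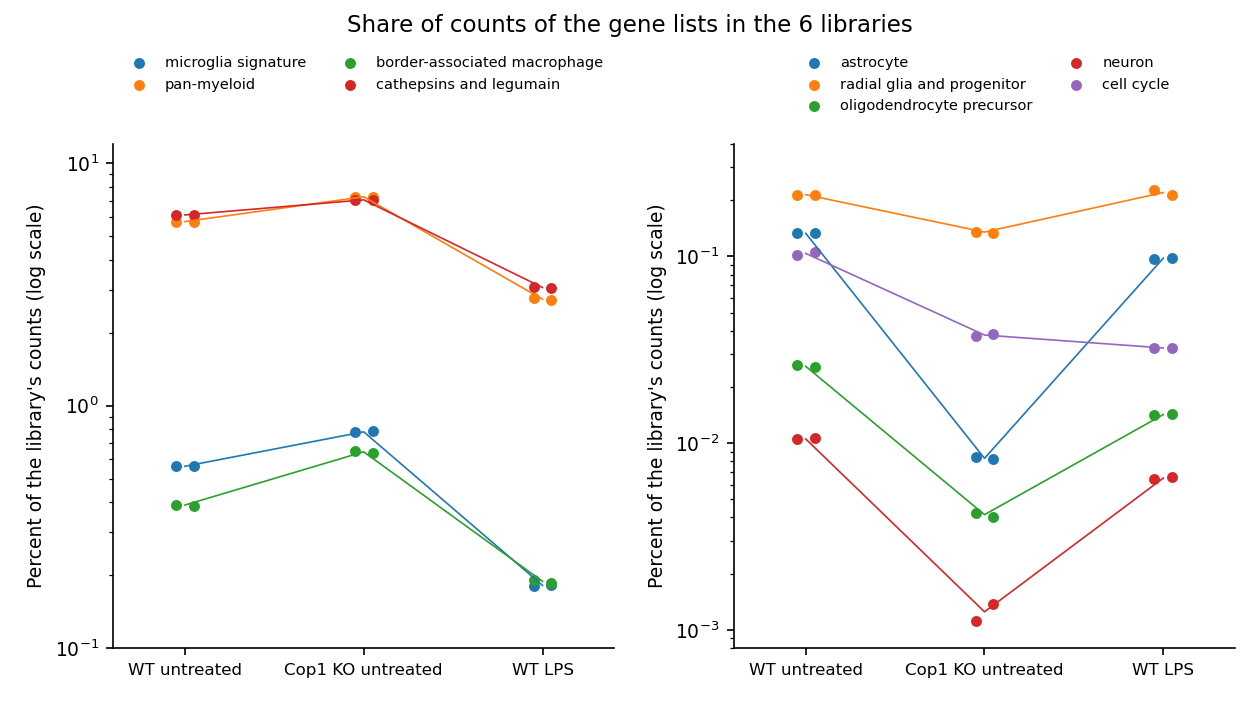
Percent of each library's counts (y axis, log scale) taken by 4 myeloid lists (left) and by 4 neural lists and the cell cycle list (right) in the 6 libraries, shown as points, with lines joining group means. The untreated wild-type astrocyte share is 0.133% in both libraries and near 0.008% in Cop1 KO, and the microglia signature takes 0.562% in untreated wild type, 0.777% and 0.782% in Cop1 KO and 0.181% and 0.182% with LPS.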

How the data were processed

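RNA was extracted from 6 samples of cultured microglia and read from unstranded polyadenylated libraries, per the labels' protocols. Reads were aligned with GSNAP to GRCm38, per the submitters' processing notes; no version or annotation release is named there. The deposited count values are reads aligned uniquely to a gene model, and the deposited RPKM values (nRPKM) are size-factor-adjusted reads per kilobase, per the file headers; how the factor was estimated is not stated. Library totals ran from 20568144 to 22553708 counts.

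Of 36528 Entrez identifiers, 31049 took names from RefSeq, 77 from GENCODE, and 5402 had none (1.07% to 1.30% of counts). Genes were ranked by the mean nRPKM and by mean share of counts of the 2 untreated wild-type libraries; with n = 2, a gene is called above another only if both libraries agree. Named genes are the first 20 by either ranking, up to 6 members of each of 53 lists with members at 0 counts, complexes, ligand and receptor pairs, the 5 largest library differences and rank shifts in each direction, and the 6 most different genes in each direction among the first 200 in each comparison. Some further list members are printed, chosen after their values were seen. The members and lists were chosen with earlier results of these data known. Groups were compared with edgeR 4.0.16 in R 4.3.3 (filterByExpr, TMM, glmQLFit, glmQLFTest, 3 residual degrees of freedom; SE as the log2 change over the root of F), checked on simulated data; alternatives used DESeq2 1.42.0 and limma 3.58.1 (pseudocount 1 nRPKM). Tables used Python 3.11.15, pandas 2.3.3 and numpy 2.4.6. Words of 50 bases and exon overlap come from GENCODE transcripts, 701 of 704 named genes matching. Promoter windows come from RefSeq (GRCm38.p6), with 27025 genes covered. Protein sequences were not used here. Some genes that the rule takes are not reported here.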

Additional observations from a re-analysis of the deposited data

How the results depend on the processing

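With 2 libraries per group, levels at low counts and small differences are limited by depth and by the number of samples. No paired analysis was possible because the labels give no replicate numbers. By count share in place of nRPKM, Csf1r moved from rank 59 to 20, Cx3cr1 from 387 to 219 and Gfap from 687 to 326. The astrocyte sum moved from 20.8% to 23.7% of the microglia signature. Count share is not divided by transcript length. Leaving out either library gave ranks of 1 to 2 (Ctsd), 56 to 59 (Csf1r), 386 to 387 (Cx3cr1) and 681 to 683 (Gfap). The 10 most abundant genes took 14.04% of counts without ribosomal protein and mitochondrial genes and 14.03% among named genes only, against 13.88%. Genes detected numbered 12751 at 0.5 nRPKM, 9404 at 2 nRPKM and 14873 at 10 counts in both libraries, against 11240.

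Scaling by library totals alone raised the median of all genes from 0.01 to 0.20 against Cop1 KO and from 0.18 to 0.74 against LPS (log2). It gave 7200 higher and 2319 lower in untreated wild type against Cop1 KO, where 4727 and 4374 were reported, and 10770 and 2678 against LPS, where 6767 and 4714 were reported. Calls higher in untreated wild type were 51.9% of all calls against Cop1 KO, 75.6% with totals alone, 41.6% with median-of-ratios factors, 42.1% with DESeq2 (3152 higher, 4327 lower) and 36.4% with limma on nRPKM (3192 higher, 5574 lower). Against LPS they were 58.9%, 80.1% with totals alone, 50.4% with median-of-ratios factors and 48.9% with DESeq2. Gfap against LPS reversed with totals alone, to 0.45. The other 31 of 32 gene results tried in both comparisons kept their direction and side of the threshold under each alternative. Leaving out each of the 6 libraries gave 4075 to 4883 higher and 3630 to 4513 lower against Cop1 KO, and 6200 to 6935 higher and 4465 to 4820 lower against LPS.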

Other observations

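Transcripts of both sex chromosomes were present in the untreated wild-type culture. Xist, the noncoding RNA of the inactive X chromosome, was at 7.04 and 7.23 nRPKM. The Y-linked Eif2s3y was at 6.75 and 6.34 nRPKM, Ddx3y at 4.74 and 5.36, Kdm5d at 1.80 and 2.07 and Uty at 1.22 in both libraries. In the Cop1 KO libraries Xist was at 11.5 and 12.1 nRPKM and Ddx3y at 2.68 and 2.80, and with LPS at 7.50 and 8.44 and at 4.39 and 4.93.

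Among mitochondrially encoded genes CYTB (883 and 897 nRPKM), COX1 (651 and 658) and ND1 (609 and 611) were high, while ATP8 and ND4L had 0 counts and COX2 had 18 and 47. The 7 of these 13 genes that share at least 50% of their 50-base words with other annotated genes had a median of 0.0777 nRPKM, and the 6 that share under 10% had 374. Members of both classes departed from these medians: ATP8 shares no word, while COX1 shares 51.1% and ND4, at 294 and 315 nRPKM, shares 62.2%.

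The noncoding RNAs Neat1 (199 and 197 nRPKM) and Malat1 (46.1 and 50.2) were ordered the same way in both libraries.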
